A study of Mus musculus with 12 samples.

Results

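This section follows 10 genes that process and cross-link collagen (Lox, Loxl1, Loxl2, P4ha1, P4ha2, Plod1, Plod2, Serpinh1, Pcolce and Bmp1) through mouse kidney. They were chosen by name, with earlier results of these data known. Each was read from the probe set that the platform annotation gives its symbol. A named probe set was found for 9 of the 10, of 19505 distinct symbols on the array, and Loxl2 was not analysed here. Whole-kidney RNA of 12 samples was measured on Affymetrix Clariom S arrays, in 4 groups of 3 samples, all at a stated age of 16 weeks. The wild type group received vehicle. The other groups were Alport mice given vehicle, losartan or metformin, and all of them carried the hemizygous nonsense mutation G5X of Col4a5, the gene for an alpha chain of basement membrane collagen IV. Losartan, which blocks the angiotensin II type 1 receptor, was given in the drinking water at 125 µg/mL from 6 to 11 weeks of age and at 250 µg/mL from 12 weeks. Metformin, a biguanide that lowers blood glucose, was given at 2.5 mg/mL and then at 5 mg/mL over the same weeks. The labels carry the later dose on to 20 weeks, past the stated age, and call losartan co-administered without naming a partner, so groups are called by the drug in the sample titles. No strain is named in the labels.

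Fibrillar collagen is made as procollagen in the endoplasmic reticulum. Prolyl 4-hydroxylases, whose catalytic subunits include P4ha1 and P4ha2, make the hydroxyproline that keeps the triple helix stable. Lysyl hydroxylases such as Plod1 and Plod2 modify lysines that later enter cross-links, and the chaperone Serpinh1 (HSP47) binds the folded helix. Outside the cell, the proteinase Bmp1 removes the C-terminal propeptide, aided by the enhancer Pcolce, and the copper enzymes Lox and Loxl1 oxidise lysines so that fibrils and elastic fibres become cross-linked. In the kidney these genes are best known from interstitial fibroblasts and myofibroblasts of scarred tissue, while hydroxylases are also made by other cells that secrete basement membrane collagen.

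Promoter sequences from RefSeq (GRCm38.p6) were matched for 5 of the 10 genes, Serpinh1, Pcolce, P4ha1, P4ha2 and Plod1. Serpinh1 and P4ha2 moved in opposite directions with both drugs. Serpinh1 with metformin and P4ha2 with losartan passed only narrowly (limma adjusted p = 0.0476 and 0.0489). The 250 bases before the start site of these genes are shown for that reason. They are written 5′ to 3′ on the gene's strand, with capitals for the letters ACGTG or GCGTG, the core of hypoxia response elements, searched on both strands (CACGT and CACGC on the strand shown).
Serpinh1, chr7:99353240-99353489, minus strand: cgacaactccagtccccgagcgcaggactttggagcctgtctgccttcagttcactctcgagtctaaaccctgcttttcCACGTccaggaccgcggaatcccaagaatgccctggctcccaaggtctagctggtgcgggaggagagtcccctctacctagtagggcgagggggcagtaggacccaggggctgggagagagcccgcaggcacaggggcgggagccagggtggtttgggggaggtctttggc
P4ha2, chr11:54100674-54100923, plus strand: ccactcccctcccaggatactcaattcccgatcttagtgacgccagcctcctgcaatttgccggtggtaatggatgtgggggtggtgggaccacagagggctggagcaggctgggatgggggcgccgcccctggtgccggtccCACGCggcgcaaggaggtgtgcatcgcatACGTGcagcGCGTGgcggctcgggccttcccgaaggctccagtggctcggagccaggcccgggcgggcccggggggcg
The Serpinh1 window held 1 match, which begins 171 bases before the start site. The P4ha2 window held 3, which begin 107, 78 and 69 bases before it. In P4ha1, which passed in no comparison, matches begin 163, 126 and 16 bases before the start site. Those of Pcolce and Plod1 begin 40 and 20 bases before it. At least 1 of these letter strings stood in all 5 windows, and in 38.6% of the 32851 promoters of the table. A match is a string of letters and no evidence of binding.

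The deposited log2 values ran from 2.3 to 19.88, with sample medians between 5.88 and 6.065 and lower quartiles between 4.1825 and 4.25. Col4a5 itself fell in Alport vehicle against wild type (log2 change -0.92 ± 0.23, SE, n = 3 per group, limma adjusted p = 0.0116), at low signal. Nephron markers were bright in every group: Slc34a1 of the proximal tubule had group means of 18.59 to 19.15, Umod of the thick ascending limb 18.58 to 18.93, and the podocyte gene Nphs1 9.23 to 9.62. Whether each sample was a different mouse is not said in the labels. A p-value here therefore weighs a difference against the scatter among these arrays, some of which may be technical, and precision is limited by how many there are.

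In Alport kidneys given vehicle, the cross-linking enzymes, the chaperone, the propeptide-removing pair and Plod2 were all higher than in wild type, while P4ha1, P4ha2 and Plod1 did not pass the test. Of 9 measured genes 6 rose and 0 fell (limma, adjusted p under 0.05, with 6 higher and 0 lower at an unadjusted p under 0.05, which 27.6% of all 22206 probe sets met). Of all probe sets 8.43% rose and 7.71% fell. In the 6 genes every Alport vehicle sample lay above every wild type sample, as in 14.2% of all probe sets. The rises ran from 2.14-fold for Plod2 to 16.3-fold for Lox. The median log2 change of the 9 genes was 1.52, and that of all probe sets was -0.03.

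Among the cross-linkers, Lox read 4.90, 5.32 and 5.24 on the log2 scale in wild type samples 1 to 3 and 9.31, 8.54 and 9.68 in the Alport vehicle samples. Every Alport sample thus lay far above every wild type sample. The change was 4.02 ± 0.28 (limma adjusted p = 2.47e-07, 95% interval 3.43 to 4.61), and 0.0991% of all probe sets had a higher one. The wild type values of Lox lay below the median of their samples, so the size of its fold is uncertain. Loxl1, which is needed for elastic fibre renewal, read 7.77, 7.51 and 7.45 in wild type and 10.30, 9.60 and 9.70 in Alport vehicle. It rose 4.89-fold (2.29 ± 0.20, limma adjusted p = 1.87e-06), and its interval of 1.87 to 2.71 lay wholly under that of Lox.

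The genes that remove the procollagen C-propeptide rose too. Bmp1 read 4.11, 4.74 and 5.20 in wild type and 6.89, 6.67 and 6.98 in Alport vehicle, with no overlap. Its change was 2.16 ± 0.29 (limma adjusted p = 0.000103). In wild type sample 1 Bmp1 was under that array's lower quartile of 4.22, which leaves the fold uncertain. Pcolce, which binds procollagen and speeds its cleavage by Bmp1, read 9.69, 9.32 and 9.40 in wild type and 10.96, 11.21 and 10.79 in Alport vehicle. It rose 2.86-fold (1.52 ± 0.18, limma adjusted p = 3.74e-05).

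Inside the cell the picture was split. Serpinh1 read 9.68, 9.54 and 9.28 in wild type and 11.00, 11.22 and 11.56 in Alport vehicle, and rose 3.39-fold (1.76 ± 0.22, limma adjusted p = 6.11e-05). Plod2, the lysyl hydroxylase that acts on the telopeptides of collagen, read 10.26, 9.39 and 9.65 in wild type and 10.81, 10.90 and 10.89 in Alport vehicle. The Alport samples were close together and all above wild type, whose sample 1 stood nearest to them. Plod2 rose by 1.10 ± 0.21 (limma adjusted p = 0.00174). Plod1, which hydroxylates lysines in the triple helix, read 8.55, 8.03 and 7.98 in wild type and 8.34, 8.11 and 8.93 in Alport vehicle. The groups of Plod1 overlapped, and its interval of -0.20 to 0.74 leaves room for a rise of up to that size.

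The prolyl hydroxylases did not pass in this comparison. P4ha1 read 11.26, 10.96 and 10.82 in wild type and 10.69, 11.01 and 10.85 in Alport vehicle, a change of -0.16 ± 0.19 (limma adjusted p = 0.641, 95% interval -0.56 to 0.23). P4ha2 read 8.99, 8.70 and 8.82 in wild type and 8.33, 8.87 and 8.52 in Alport vehicle, a change of -0.26 ± 0.18 (limma adjusted p = 0.386, 95% interval -0.64 to 0.12). Both pairs of groups overlapped. The upper ends of these intervals lie below the lower end for Plod2 (0.65) and for each of the other genes that rose. After each sample was centred on its median, which moved the median change of all probe sets from -0.03 to -0.17, the same 6 genes had log2 changes from 0.96 (Plod2) to 3.89 (Lox) and all passed. That centring lowered the share of higher among all changed probe sets from 52.2% to 33.8%.

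**Figure D1:**
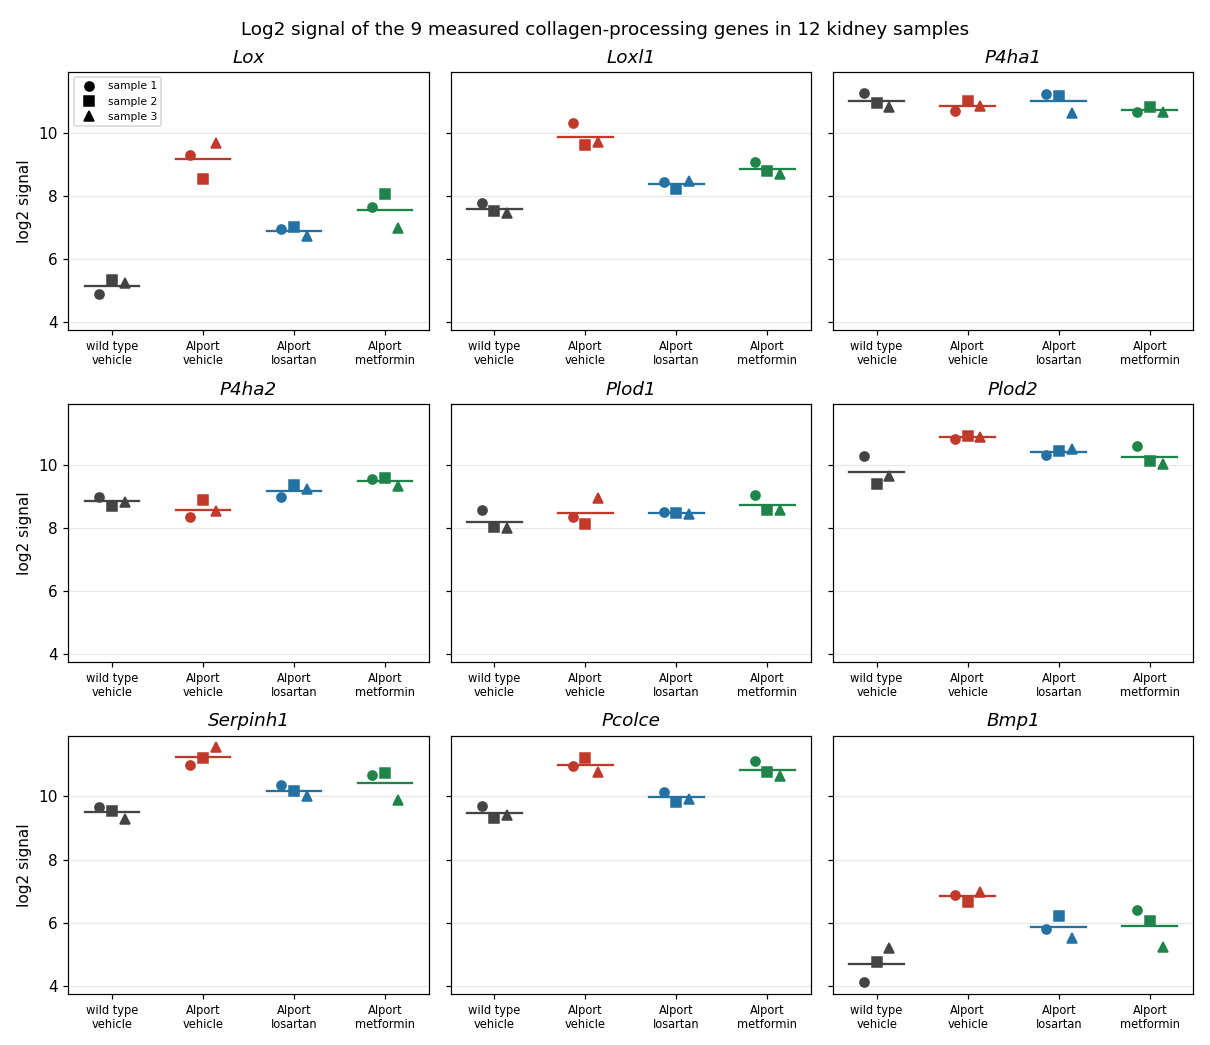
Log2 signal (vertical axis) of each measured gene in the 4 groups (horizontal axis); each symbol is 1 sample, with its shape giving the sample number, and each bar is the group mean of 3 samples. By group mean, Lox, Loxl1, Plod2, Serpinh1, Pcolce and Bmp1 are lowest in wild type and highest in Alport vehicle. P4ha2 is lowest in Alport vehicle (mean 8.57) and highest with metformin (mean 9.49).

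The collagens that these enzymes act on had a median change of 4.83. All 5 fibrillar collagen genes of the list rose, with Col3a1 at 6.12 ± 0.31, Col1a1 at 5.40 ± 0.38 and Col1a2 at 4.83 ± 0.31, and Col5a2 and Col5a1 at 1.69 and 1.30. The means of Col5a1 lay near or below the lower quartile of the samples (3.25 in wild type and 4.55 in Alport vehicle), so its size is uncertain. The wild type mean of Col5a2 (4.2) lay near that quartile as well, which limits its size too. Of 8 measured elastic fibre genes, substrates or partners of Lox and Loxl1, 6 rose and 0 fell, with a median of 1.29. Ltbp2, a latent TGF-beta binding protein of microfibrils, was at 2.63 ± 0.25, Emilin1 at 1.72 ± 0.25, Mfap4 at 1.71 ± 0.22 and elastin itself (Eln) at 1.15 ± 0.20. In wild type Ltbp2 read 3.82, 3.75 and 3.56, under the lower quartile of each sample, so the size of its change is uncertain too.

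The rest of the collagen pathway did not move as a block. Of 7 other collagen-modifying enzymes 2 rose and 0 fell, with 2 lower at an unadjusted p under 0.05 and a median of -0.11. The galactosyltransferase Colgalt1, which adds galactose to hydroxylysine, rose by 0.85 ± 0.19 and the prolyl 3-hydroxylase family gene P3h3 by 0.71 ± 0.21, while P3h2 was at -0.62 ± 0.23 (limma adjusted p = 0.0881). P4hb, the partner subunit of both prolyl 4-hydroxylases, was at -0.35 ± 0.18 (limma adjusted p = 0.213). Of 9 other folding and export proteins 1 rose and 3 fell, with a median of -0.14. P3h4, which acts with lysyl hydroxylase, rose by 1.08 ± 0.25, and the procollagen export proteins Mia3 and Mia2 and the ion channel gene Tmem38b were at -0.85, -0.81 and -1.09.

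Among 7 other procollagen proteinases and enhancers, Pcolce2 rose by 0.82 ± 0.22, and the meprins Mep1a and Mep1b, brush border proteases of the proximal tubule that can also cleave procollagen, fell by 0.91 and 1.54. The median of that list was -0.16. Of 6 other matrix cross-linkers 3 rose and 1 fell, with a median of 0.31. Loxl3 rose by 1.21 ± 0.26, the collagen IV cross-linking peroxidase Pxdn by 0.86 ± 0.22 and transglutaminase Tgm2 by 0.69 ± 0.21, while Tgm1 was at -1.83 ± 0.24. General chaperones of the endoplasmic reticulum did not pass with Serpinh1: 0 of 11 changed (limma, with 1 higher at an unadjusted p under 0.05), and their changes ran from -0.35 to 0.48. Of 14 hypoxia-induced genes 0 rose and 2 fell, with 2 higher at an unadjusted p under 0.05. Those that fell were Car9 (-1.17 ± 0.21) and the oxygen sensor Egln3 (-0.66 ± 0.19).

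**Figure D2:**
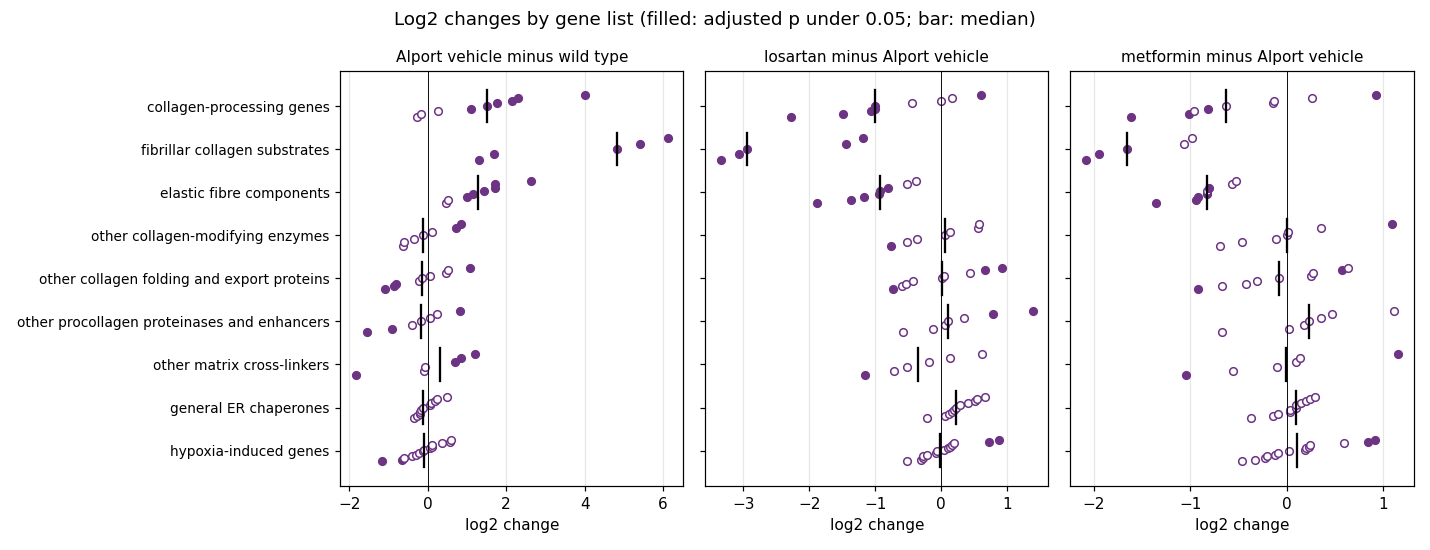
Log2 change (horizontal axis) of each measured gene, by list (rows), in 3 comparisons; filled points have a limma adjusted p under 0.05, open points do not, and the bar is the median of the list. In Alport vehicle against wild type the medians are 1.52 for the collagen-processing genes, 4.83 for fibrillar collagens and 1.29 for elastic fibre genes, while the other lists lie between -0.16 and 0.31.

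With losartan most of the genes that were high in Alport kidneys fell, and P4ha2 rose. Of 9 genes 5 fell and 1 rose against Alport vehicle (limma), where 4.11% of all probe sets fell and 3.79% rose. Among all changed probe sets 48.0% were higher, and 63.1% after centring on the sample median. The falls ran from 2.00-fold for Bmp1 to 4.85-fold for Lox. At an unadjusted p under 0.05, which 20.4% of all probe sets met, 1 was higher and 6 were lower. In 6 genes every losartan sample lay below every Alport vehicle sample, as in 11.3% of all probe sets. The median log2 change was -1.0, against 0.01 for all probe sets. This comparison and the one with wild type share the Alport vehicle samples.

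With losartan Lox read 6.96, 7.01 and 6.73, below every Alport vehicle sample, and fell by 2.28 ± 0.28 (limma adjusted p = 0.000427). Loxl1 read 8.43, 8.21 and 8.48 and fell 2.82-fold (-1.49 ± 0.20, limma adjusted p = 0.00053). The spread within the losartan group was small in both genes, with SDs of 0.15 and 0.14. Serpinh1 read 10.37, 10.18 and 10.03 with losartan and fell 2.09-fold (-1.07 ± 0.22, limma adjusted p = 0.00881). Pcolce read 10.15, 9.84 and 9.93 and fell 2.02-fold (-1.01 ± 0.18, limma adjusted p = 0.00371). These 4 calls held when any 1 sample was left out.

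The calls of Bmp1 and P4ha2 with losartan lay close to the threshold. Bmp1 read 5.81, 6.22 and 5.52, all below Alport vehicle, with a change of -1.0 ± 0.29 (limma adjusted p = 0.0489). P4ha2 read 8.97, 9.35 and 9.22, all above Alport vehicle, with a change of 0.61 ± 0.18 (limma adjusted p = 0.0489). For Bmp1 the call was lost without any 1 of the 6 samples, with adjusted p from 0.0555 to 0.182. For P4ha2 it was lost without Alport vehicle sample 1 (0.202) or 3 (0.118) and without losartan sample 2 (0.191) or 3 (0.132). After centring on the sample median the adjusted p of Bmp1 was 0.0622.

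Plod2, P4ha1 and Plod1 did not pass with losartan. Plod2 read 10.32, 10.43 and 10.49, under every Alport vehicle sample, at -0.45 ± 0.21 (limma adjusted p = 0.239, 95% interval -0.90 to 0.00). P4ha1 read 11.23, 11.16 and 10.64 (0.16 ± 0.19, limma adjusted p = 0.711). Plod1 read 8.49, 8.46 and 8.44 (0.00 ± 0.22, 95% interval -0.47 to 0.47).

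All 5 fibrillar collagens fell with losartan, led by Col1a1 at -3.34 ± 0.38, and 6 of 8 elastic fibre genes fell, with Eln at -0.94 ± 0.20. Of the other modifying enzymes P3h3 fell by 0.76 ± 0.21, 1 of 7. Among folding and export proteins Mia3 and Mia2 rose by 0.92 and 0.66 and Creb3l1, an endoplasmic reticulum transcription factor that drives collagen genes, fell by 0.73. The meprins Mep1a and Mep1b rose by 0.78 and 1.39. Pxdn, at -1.16 ± 0.22, was the 1 of 6 other cross-linkers that changed. Of the hypoxia-induced genes 2 of 14 rose, Bnip3 (0.87 ± 0.21) and Car9 (0.73 ± 0.21). Of the general chaperones 0 of 11 changed (limma, with 3 higher at an unadjusted p under 0.05).

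With metformin Lox, Loxl1 and Serpinh1 fell and P4ha2 rose, while Pcolce overlapped with Alport vehicle and did not pass. Of 9 genes 3 fell and 1 rose against the same Alport vehicle samples (limma), where 2.27% of all probe sets fell and 2.67% rose. Among all changed probe sets 54.0% were higher, and 68.5% after the same centring. The count of 4 genes became 2 without Alport vehicle sample 1 or metformin sample 3. The falls ran from 1.76-fold for Serpinh1 to 3.06-fold for Lox. At an unadjusted p under 0.05, which 18.6% of all probe sets met, 1 was higher and 5 were lower. In 5 genes every metformin sample lay below every Alport vehicle sample, as in 9.88% of all probe sets. The median log2 change was -0.63, against -0.01 for all probe sets.

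Lox read 7.66, 8.05 and 6.98 with metformin, below every Alport vehicle sample, and fell by 1.61 ± 0.28 (limma adjusted p = 0.00504). Loxl1 read 9.08, 8.80 and 8.68 and fell by 1.01 ± 0.20 (limma adjusted p = 0.00898), or by 0.93 with adjusted p = 0.0564 without metformin sample 3. Serpinh1 read 10.68, 10.75 and 9.90, again below every Alport vehicle sample, at -0.82 ± 0.22 (limma adjusted p = 0.0476). The fall of Serpinh1 rested on sample 3 in size: without it the change was -0.55 (adjusted p = 0.225). The call was also lost without Alport vehicle sample 1, 2 or 3 (0.071, 0.0702 and 0.152) and after centring on the sample median (0.0605).

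P4ha2 read 9.55, 9.59 and 9.33 with metformin, above all samples of Alport vehicle. Its rise was 1.89-fold (0.92 ± 0.18, limma adjusted p = 0.00907). Without Alport vehicle sample 1 the adjusted p was 0.0524. Pcolce read 11.13, 10.78 and 10.65, overlapping with Alport vehicle, at -0.13 ± 0.18 (limma adjusted p = 0.779, 95% interval -0.52 to 0.25). Bmp1 read 6.39, 6.06 and 5.22, below Alport vehicle in every sample, at -0.96 ± 0.29 (limma adjusted p = 0.0756). It passed without metformin sample 1 (-1.21, adjusted p = 0.0384).

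Plod2 read 10.59, 10.11 and 10.01 with metformin, below every Alport vehicle sample, at -0.63 ± 0.21 (limma adjusted p = 0.104). P4ha1 read 10.66, 10.81 and 10.67 (-0.14 ± 0.19, 95% interval -0.53 to 0.26) and Plod1 9.04, 8.56 and 8.57 (0.26 ± 0.22, 95% interval -0.21 to 0.73), and neither passed. Metformin sample 3 was the lowest of its group in 7 of the 9 genes. It also had the lowest summed signal of the fibroblast list (13.16, against 13.79 and 13.54) and of the macrophage list (11.96, against 13.28 and 13.01). The part of these cells in the spread of the metformin group was not tested.

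Of the 5 fibrillar collagens 3 fell with metformin, with Col1a2 at -2.08 ± 0.31, and 5 of 8 elastic fibre genes fell, with Fbn2 at -0.92 ± 0.18 and Eln at -0.81 ± 0.20. Fbn2 read 4.18, 4.50 and 4.06 with metformin, near the lower quartile of the samples, so the size of its fall is uncertain. The prolyl 3-hydroxylase P3h2 rose by 1.09 ± 0.23, the 1 of 7 other modifying enzymes that changed. Mia2 rose by 0.57 and Crtap, a partner of prolyl 3-hydroxylation, fell by 0.92, of 9 folding and export proteins. In the cross-linker list Tgm1 rose by 1.15 ± 0.24 and Pxdn was at -1.04 ± 0.22. Of the other proteinases and enhancers 0 of 7 changed (limma, with 2 higher and 1 lower at an unadjusted p under 0.05). Car9 and Bnip3 rose by 0.91 and 0.84, 2 of 14 hypoxia-induced genes. Of the general chaperones 0 of 11 changed, and 0 differed at an unadjusted p under 0.05 (limma).

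**Figure D3:**
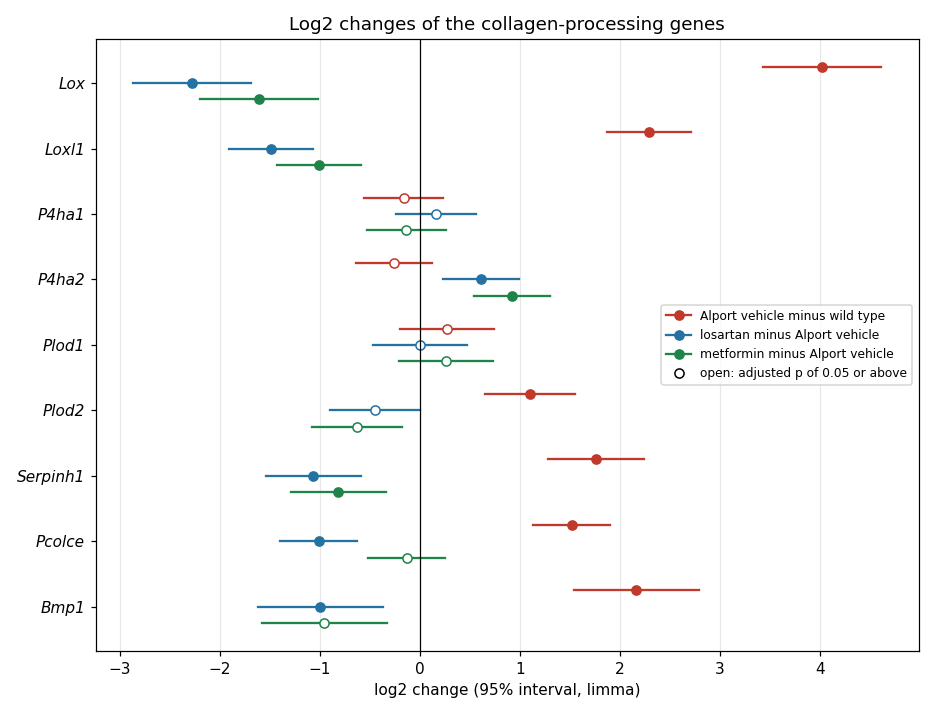
Log2 change (horizontal axis, with 95% intervals from limma) of each gene (rows) in 3 comparisons, which share the Alport vehicle samples; filled points have an adjusted p under 0.05. P4ha2 lies to the right of 0 with both drugs, at 0.61 and 0.92, and Pcolce lies at -1.01 with losartan and -0.13 with metformin.

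A direct comparison of the drugs asks whether their effects differ. Of 9 genes 0 changed between metformin and losartan (limma, with 3 higher and 0 lower at an unadjusted p under 0.05, which 8.37% of all probe sets met), where 0.045% of all probe sets changed. In 3 genes, Pcolce, Loxl1 and Plod1, every metformin sample lay above every losartan sample, as in 5.77% of all probe sets. Pcolce came nearest: every metformin sample (10.65 to 11.13) lay above every losartan sample (9.84 to 10.15). Its difference was 0.88 ± 0.18 (unadjusted p = 0.000193, limma adjusted p = 0.127, 95% interval 0.49 to 1.27), and 0.527% of all probe sets had a higher one. Lox was at 0.66 ± 0.28 and Loxl1 at 0.48 ± 0.20 (limma adjusted p = 0.544 and 0.524), with overlap in Lox and none in Loxl1. The intervals of the other 6 genes all included 0. The lowest lower end was that of P4ha1 (-0.69 to 0.10), and the highest upper ends were those of Plod1 (-0.21 to 0.73) and Serpinh1 (-0.23 to 0.73), so differences of up to that size remain possible.

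Set against wild type, the treated kidneys still stood higher in part of the set. With losartan 1 of 9 genes was higher and 0 lower (limma, with 6 higher and 0 lower at an unadjusted p under 0.05, which 10.7% of all probe sets met), where 0.401% of all probe sets were higher and 0.149% lower. That gene was Lox, 3.36-fold above wild type (1.75 ± 0.28, limma adjusted p = 0.00865). Loxl1 (0.80 ± 0.20, limma adjusted p = 0.101), Bmp1 (1.17 ± 0.29, 0.109), Serpinh1 (0.69 ± 0.22, 0.224), Plod2 (0.65 ± 0.21, 0.232) and Pcolce (0.50 ± 0.18, 0.291) did not pass, though in each of them every losartan sample lay above every wild type sample. Such a lack of overlap, in that direction, was seen in 8.40% of all probe sets.

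With metformin 5 of 9 genes were higher than in wild type and 0 lower (limma, with 8 higher and 0 lower at an unadjusted p under 0.05, which 18% of all probe sets met), where 2.70% of all probe sets were higher and 1.48% lower, a share of higher of 64.5% that became 51.4% after centring. In 7 genes every metformin sample lay above every wild type sample, as in 10.6% of all probe sets. In 1 gene, P4ha1, every metformin sample lay below every wild type sample, as in 12.2% of all probe sets, at -0.30 ± 0.19 (limma adjusted p = 0.437). Lox was 5.31-fold higher (2.41 ± 0.28, limma adjusted p = 0.000155), Pcolce 2.61-fold (1.38 ± 0.18, limma adjusted p = 0.000488) and Loxl1 2.42-fold (1.28 ± 0.20, limma adjusted p = 0.00168). Serpinh1 (0.94 ± 0.22, limma adjusted p = 0.0265) and Bmp1 (1.21 ± 0.29, limma adjusted p = 0.03) passed as well. Bmp1 did not pass with losartan at nearly the same change (1.17, limma unadjusted p = 0.00113, against 0.000847 with metformin). An adjusted p depends on how many probe sets of its comparison differ, so the counts of the drugs do not measure how the drugs differ. The metformin count was 3 of 9 without wild type sample 2 or without metformin sample 1 or 2. In these cases Serpinh1 had adjusted p = 0.0697, 0.127 and 0.118, and Bmp1 0.0778, 0.156 and 0.109. Serpinh1 also lost its call without wild type sample 3 (0.119), and Bmp1 without wild type sample 1 (0.122). P4ha2 lay above wild type in every metformin sample, at 0.65 ± 0.18 (limma adjusted p = 0.0514). Plod1 and Plod2 were at 0.54 ± 0.22 and 0.47 ± 0.21 (limma adjusted p = 0.207 and 0.254).

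In order of group mean, Lox, Loxl1, Serpinh1, Pcolce and Bmp1 ran from wild type over losartan and metformin to Alport vehicle. The losartan and metformin means of these 5 genes did not differ by the test. In Plod2 the order of the drugs was the reverse, with means of 10.41 and 10.24, and in P4ha2 Alport vehicle stood lowest at 8.57, wild type next at 8.84, then losartan at 9.18 and metformin at 9.49. Neighbours in that last order did not differ by the test.

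Most markers of fibroblasts, of pericytes and smooth muscle and of macrophages rose in Alport vehicle, as did most of the collagen-processing genes. Most proximal tubule markers fell, and in the other lists most did not pass. In whole-kidney RNA, more cells of a type and more RNA per cell cannot be told apart. Of 7 measured fibroblast markers 6 rose in Alport vehicle against wild type, with Dcn, the brightest, at 3.78 ± 0.22 and Dpt at 4.61 ± 0.32. Their summed signal ran from log2 11.23 to 11.42 in wild type, 14.81 to 15.38 in Alport vehicle, 13.22 to 13.86 with losartan and 13.16 to 13.79 with metformin. Such a sum adds linear values, so the brightest genes of a list weigh most. Dcn alone read 14.80, 14.71 and 15.30 in Alport vehicle, close to the fibroblast sums there. Pdgfra was not analysed here, and Fap stayed below the lower quartile as a mean in every group (3.75 to 3.93). Of 8 pericyte and smooth muscle markers 7 rose, with Tagln at 3.51 ± 0.24 and Acta2, the brightest, at 3.53 ± 0.32, and the summed signal was 11.59 to 12.24 in wild type, 14.36 to 15.04 in Alport vehicle, 12.65 to 13.04 with losartan and 12.61 to 13.39 with metformin. The share of these cells in the changes of the collagen-processing genes was not tested.

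Macrophage markers rose in 6 of 7 cases, with Lyz2 at 6.31 ± 0.49 and Csf1r, the brightest by its mean over all 12 samples, at 0.51 ± 0.17 (limma adjusted p = 0.0557), and the summed signal went from 10.93 to 10.96 in wild type to 12.79 to 14.60 in Alport vehicle. With losartan it was 11.65 to 11.94 and with metformin 11.96 to 13.28. Different genes weighed most in these sums. In wild type Csf1r alone read 10.39, 10.37 and 10.49, and in Alport vehicle Lyz2 alone read 13.09, 11.93 and 14.06. Proximal tubule markers fell in 8 of 9 cases, with Hnf4a at -1.31 ± 0.16. Kap, the brightest of them, had means of 19.63 in wild type and 19.51 in Alport vehicle. Urothelial markers, which a piece of renal pelvis would bring, rose in 2 of 8 cases (Psca at 2.58 ± 0.55 and Upk1b at 1.06 ± 0.28), with a summed signal of 8.44 to 8.54 in wild type and 9.10 to 11.31 in Alport vehicle. Alport vehicle sample 3 had the highest sum of its group for urothelium (11.31, against 9.10 and 9.68), adipocytes (11.98, against 10.58 and 10.80) and macrophages (14.60, against 13.85 and 12.79). It was also highest for fibroblasts (15.38, against 14.88 and 14.81) and for pericytes and smooth muscle (15.04, against 14.83 and 14.36). Of the marker lists, only those of proximal tubule and podocytes did not have their highest sum in that sample. Without any 1 of the 6 samples, Alport vehicle sample 3 included, 6 collagen-processing genes changed between Alport vehicle and wild type. Of all 22206 probe sets 2549 to 3756 changed in these fits. The urothelial sums of the other Alport vehicle samples also lay above wild type, so these fits do not test the part of such tissue. In the endothelial list 1 of 7 rose (Emcn, 0.73 ± 0.20) and 1 fell (Kdr, -0.69 ± 0.19), of 5 podocyte markers 1 rose (Synpo, 1.68 ± 0.16), and of 8 markers of other nephron segments 1 rose (Aqp2, 1.49 ± 0.28) and 1 fell (Slc12a3, -0.64 ± 0.19). Clic5, the brightest podocyte marker, had means of 13.95 in wild type and 13.94 in Alport vehicle. Of 5 adipocyte and 6 adrenal markers 0 changed (limma, with 2 and 0 higher at an unadjusted p under 0.05). With losartan 6 of 7 fibroblast, 6 of 8 pericyte and smooth muscle and 4 of 7 macrophage markers fell, and 5 of 9 proximal tubule and 2 of 7 endothelial markers rose. With metformin 5, 6 and 1 of the first 3 lists fell, 3 of 9 proximal tubule markers rose, and 1 each of the podocyte, endothelial and urothelial lists fell. What part these cells have in the results was not tested.

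**Figure D4:**
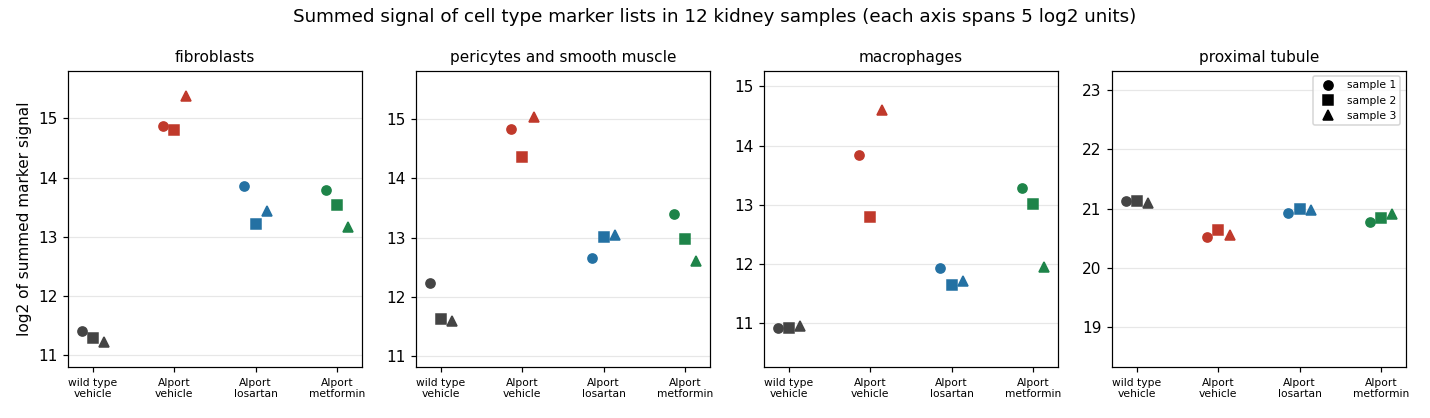
Log2 of the summed signal (vertical axis) of 4 marker lists in each sample (symbols, with the shape giving the sample number) of the 4 groups (horizontal axis); each panel spans the same range. Fibroblast sums lie between 11.23 and 11.42 in wild type and between 14.81 and 15.38 in Alport vehicle, with both drug groups between them. Linear values are added, so the brightest genes of a list weigh most.

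For each gene that rose in Alport vehicle, the probe set with the most similar values was sought, by the root mean square difference over all 12 samples of log2 values centred on the wild type mean. For Lox it was Fn1, fibronectin, at 0.29, with changes of 4.14 in Alport vehicle, -2.46 with losartan and -1.66 with metformin. For Loxl1 it was the cadherin Cdh11, at 0.21, and for Serpinh1 the endoplasmic reticulum calcium-binding protein Rcn3, at 0.17. For Plod2 it was Praf2 at 0.18, for Pcolce Col4a1 at 0.22 and for Bmp1 the complement protease C1s1 at 0.27, a gene with a near-identical copy whose signal may be shared. Col4a1, at -0.84 with losartan and -0.40 with metformin, came closest to Pcolce, whose own values were -1.01 and -0.13.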

How the data were processed

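The table deposited by the authors holds log2 signals of 22206 probe sets in the 12 samples. The submitters' processing notes name Transcriptome Analysis Console 4.0; for background correction, normalization and probe summary the method is not given in the sources used here. That the scale is log2 was read from the values. Gene symbols came from the platform annotation and RefSeq (GRCm38.p6, for names only), which gave 1 symbol for 19572 and none for 2634. Each of the 9 measured genes had 1 probe set.

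A mean per group was fitted to all 12 samples with limma 3.58.1 (R 4.3.3, lmFit and eBayes, 8 residual degrees of freedom). P-values are two-sided and Benjamini-Hochberg adjusted over all probe sets of a comparison. An adjusted p under 0.05 counts as a change, and only then is a gene said to rise or fall. Errors of changes are standard errors. The 6 comparisons share groups. The procedure was also run on simulated data with noise drawn independently for each gene. That run checks the code and does not bear on the calls of single genes. Summed signals add linear values of a list.

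The genes, the 18 lists (137 of 148 genes measured), the naming rule and the alternatives were chosen with earlier results of these data known. From a list, up to 4 genes with the smallest p in a comparison are named, plus the brightest gene of some cell type lists. P4hb, Nphs1, Slc34a1, Fap and, with the drugs, Eln were named after their values were seen. Same-numbered samples did not deviate together (r from -0.14 to 0.08 over 18 pairs).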

Additional observations from a re-analysis of the deposited data

How the results depend on the processing

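The alternatives were centring, quantile normalization once more, a filter on dim probe sets, a trended robust prior, array weights, fits restricted to the pair of groups, an unadjusted p with at least 2-fold, the replicate number as a block, and leaving out each sample. A second probe set could not be tried, since each gene had 1. Direction turned in 0 of the called changes. In Alport vehicle against wild type 6 genes changed under each alternative. The count for losartan against wild type went from 1 to 2 with array weights, with a fit of only these groups and with the 2-fold rule. The count for metformin against vehicle went from 4 to 2 with the 2-fold rule, and ranged from 2 to 5 when a sample was left out. Without 1 sample the count for metformin against wild type ranged from 3 to 5, and for metformin against losartan it stayed at 0. For losartan against vehicle it ranged from 4 to 5, always below the main count of 6. That count of 6 held only with the filter on dim probe sets. Bmp1 lost its call with quantile normalization (limma adjusted p = 0.0715) and array weights (0.0616). P4ha2 lost its call with the trended prior (0.0519) and the fit of only these groups (0.107), and both lost theirs with the 2-fold rule. With the replicate number as a block, which the samples' deviations did not bear out as a pairing, 4 genes changed with losartan (P4ha2 and Bmp1 had adjusted p = 0.066 and 0.0721) and 3 with metformin (Serpinh1 had 0.0603) against vehicle, and no other gene's call changed. The alternatives gave 756 values of single genes, most of them for changes not called in the main fit. Of those called in the main fit 41 lost their call, and of the others 6 gained one. The 756 values are thus not the base of the 41 losses. These losses lay in Bmp1, Serpinh1 and P4ha2, and in Loxl1 only for metformin against vehicle without metformin sample 3. Over all probe sets, the metformin against losartan count went from 10 to 17 with array weights, 3 in a fit of those groups and 102 with the 2-fold rule; losartan against wild type from 122 to 195, 285 and 239 and to 37 to 62 without 1 sample; metformin against vehicle from 1096 to 410 in a fit of those groups and to 266 to 1320 without 1 sample. By the 2-fold rule 1565 in place of 3582 passed for Alport vehicle against wild type, 799 in place of 1755 for losartan and 511 in place of 1096 for metformin against vehicle, and 542 in place of 928 for metformin against wild type. Without 1 sample losartan against vehicle gave 716 to 2073, metformin against losartan 5 to 91 and metformin against wild type 346 to 1019. Precision is limited by 3 samples per group and by low wild type signal of Lox and Bmp1.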

Other observations

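Wild type sample 1 had the highest value of its group in 7 of the 9 genes, for example in Plod2 (10.26, against 9.39 and 9.65) and Plod1 (8.55, against 8.03 and 7.98). In Bmp1 it had the lowest (4.11, against 4.74 and 5.20). Its pericyte and smooth muscle sum was 12.24, against 11.63 and 11.59 in the other wild type samples. In the Alport vehicle group samples 1, 2 and 3 were highest in 1, 4 and 4 genes and lowest in 4, 4 and 1. The GC box letters GGGCGG, searched on both strands, stood in the 250 bases before the start site of all 5 genes with a promoter in the table and in 32.7% of its promoters.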
